A study of Homo sapiens with 45 samples.

Results

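High against low mitotic score cells are 24 of the 45 H1 human embryonic stem cells of this series, the 12 with the highest and the 12 with the lowest mean level of 6 mitotic mRNAs relative to cells prepared the same way. The cells were chosen by a measured value. Each of the 38 cells not titled Fixed_RLT was given the mean log2(CPM + 1) of CCNB1, CDC20, PLK1, AURKA, CENPE and CENPF, where CPM is a gene's counts per 1000000 counts of that cell, and the mean of its title group was subtracted. The 14 cells between both sets serve as a further description. The 6 score genes fixed the choice, so their own difference between the sets is described and not tested, and because every other gene was read in the same cells, no p-value is given for any gene.

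H1 is an established human embryonic stem cell line, grown here on Matrigel in mTESR1 medium, at passage 40. All cells were dissociated with Accutase and sorted singly as live (DAPI-) or fixed (DAPI+) cells, with no genetic change or drug named in the labels. FRISCR, a method that recovers RNA from single fixed cells, was used on 15 cells labelled live (titled Live_PLRC) and 12 labelled fixed (Fixed_PLRC), and 11 cells labelled live were lysed with Triton (Live_RLT). The 7 fixed cells lysed with Triton (Fixed_RLT) are left out by the rule. Their uncentred score lay between 0.76 and 4.56, against 3.87 to 8.61 in the 38 scored cells, and 4156 to 6629 genes had a count in them after thinning to 1000000 counts. No label ties a cell to a culture, so each set of cells stands as 1 sample, and its cells are not replicates of a condition. The deposited extraction text describes cortical tissue and was not used to describe these cells.

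Proliferating cells rebuild part of their mRNA pool in each cycle. E2F factors drive genes of DNA replication around the start of S phase, and a complex of MuvB proteins with B-MYB and FOXM1 drives the genes of G2 and mitosis, many of which carry a short element named the cell cycle genes homology region (CHR) close to the transcription start. The mitotic mRNAs build up through G2 and are broken down or silenced after division, so that a score of this kind follows the approach to mitosis and does not by itself show that a cell is in mitosis. Human embryonic stem cells cycle fast with a short G1 phase.

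Scores in the high set ran from 1.84 down to 0.91, and in the low set from -0.56 down to -2.89. The cell just outside the high set had 0.81 and the cell just outside the low set had -0.43, so neither edge fell in a wide gap. The high set held 6 live FRISCR, 4 fixed FRISCR and 2 live Triton cells. The low set held 5 live FRISCR, 4 fixed FRISCR and 3 live Triton cells. By library set, the 2 series of library names in the titles, the high set had 7 cells of the first and 5 of the second, and the low set had 5 and 7.

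**Figure D1:**
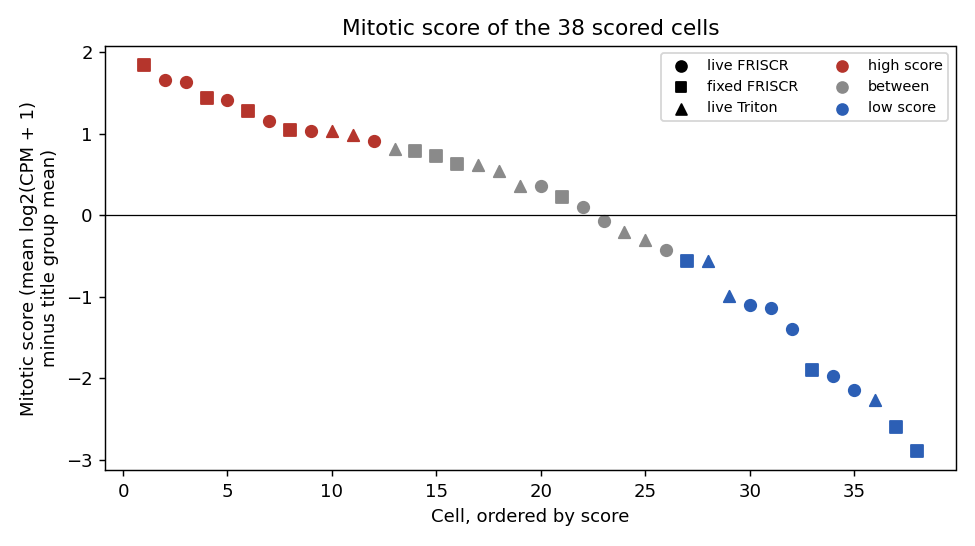
Mitotic score of each of the 38 scored cells (y axis, mean log2(CPM + 1) of 6 genes minus the mean of the title group) in order of score (x axis). Red marks the 12 high-score cells, grey the 14 between and blue the 12 low-score cells, and the marker shape gives the title group. The scores fall without a step at either edge, and the low side reaches further (-2.89) than the high side (1.84).

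Depth overlapped between the sets. Total counts ran from 3616108 to 5540102 in the high set and from 4120246 to 6030111 in the low set. After thinning to 1000000 counts, 8501 to 10346 genes (median 9285) had a count in a high-score cell and 8296 to 10043 (median 9034) in a low-score cell. CPM are shares of a cell's counts, so the amount of RNA per cell was not measured. The stem cell markers POU5F1, SOX2 and LIN28A all had counts in 12 of 12 high-score, 14 of 14 middle and 12 of 12 low-score cells. Summed CPM of the list of germ layer and trophoblast markers, most of it keratin KRT8 and KRT18, was 588 to 2310 per cell in the high set and 662 to 2113 in the low set, and that of the fibroblast markers was 496 to 1534 and 371 to 1415. The high and low cells overlapped on both lists. Of 5 fibroblast markers compared, 1 was called higher in the high set by the rule given below (20.0%, against 5.55% of all genes). This was TAGLN, an actin-binding protein (79.6 against 36.8 CPM), which was level in live Triton cells (log2 fold 0.05). The median log2 fold of the fibroblast list was 0.81 in live FRISCR, 0.26 in fixed FRISCR and -0.68 in live Triton cells, and its part in other results was not tested.

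The 6 score genes are the regulators that fixed the choice. Cyclin B1 (CCNB1), which activates CDK1 for entry into mitosis, had a summed level of 675 CPM in the high set, 429 CPM in the middle cells and 268 CPM in the low set. CDC20, the mitotic coactivator of the anaphase-promoting complex, had 415, 331 and 134 CPM. Polo-like kinase PLK1 had 399, 229 and 62.8 CPM. Aurora kinase A (AURKA), which matures centrosomes, had 272, 108 and 28.3 CPM. The kinetochore motor CENPE had 120, 94.0 and 31.0 CPM, and the kinetochore protein CENPF had 287, 270 and 107 CPM. Low values were in part values of 0: in 7 of the 12 low-score cells at least 1 score gene was listed at 0 (PLK1 in 3, AURKA in 2 and CENPE in 4 of the 12), and in none of the 12 high-score or 14 middle cells.

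Each score gene was also read in cells chosen by the other 5 genes. The left-out gene was higher in the newly chosen high set for all 6: by 1.18 on the log2 scale for CCNB1 and 1.63 for CDC20, by 2.67 for PLK1 and 2.88 for AURKA, and by 0.88 for CENPE and 1.43 for CENPF. Between 9 and 12 of the 12 high-score cells, and 10 to 12 of the low-score cells, were chosen again. CENPE followed the other 5 genes least, with the greater centred value (log2(CPM + 1) minus the title group mean) in the high-score cell in 77.1% of the pairs of a high-score and a low-score cell, against 99.3% for CENPF.

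The CHR element was looked for because so many of the genes described below are G2 and mitosis genes. Sequences came from RefSeq promoters of build GRCh38.p14, matched by symbol, while the deposited values were made on GRCh37 (hg19). Of 159 genes in 8 lists of mitosis genes that leave out the score genes, 135 matched the table, as did 77 of the 93 genes in 3 lists of G1 and S phase genes. The letters TTTGAA, the CHR core, stood on either strand in the 250 bases before the start of 37.0% of the mitotic list genes, 5.19% of the G1/S list genes, 8.11% of 6177 matched genes of those compared between the sets and 13.6% of the 27305 symbols in the table. Within 50 bases of the start, a window set after the positions were seen, the shares were 17.8%, 1.30%, 1.46% and 2.31%. Among all genes higher in the high-score cells by the rule given below, 11.7% of 333 matched held the letters in the 250 bases. Among those lower it was 4.00% of 175 matched. Within 50 bases these shares were 3.30% and 0.571%. The higher genes include mitotic list genes, which were 13 of the 39 with the letters in the 250 bases. Within 50 bases they were 7 of the 11. The share among higher genes outside the mitotic lists was not taken separately. In all, 24 mitotic list genes held the letters within 50 bases. Of the 30 matched mitotic list genes that were higher in the high-score cells, 23.3% did, against 17.8% of all 135. The 30-base stretches below show the element in PLK1, in the 7 of the 24 that were higher, and in ESPL1, which was lower. The rest of the 24, called neither way, are not shown. They run 5′ to 3′ on the gene's strand, with the element in capitals (TTTGAA, or TTCAAA where it lies on the other strand), and its distance before the start is given after them.
PLK1: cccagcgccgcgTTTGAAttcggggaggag
CDCA8: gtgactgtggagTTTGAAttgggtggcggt
GTSE1: ctcggagcccttTTCAAAccgaccaatcgg
HMMR: aatgtggggagaTTTGAAtttgaaaccggt
KIF15: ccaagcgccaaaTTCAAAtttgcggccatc
DEPDC1: ccctctatgctaTTCAAAtcggcggcgggg
MKI67: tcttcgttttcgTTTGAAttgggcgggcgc
PIF1: ctgcctctagcaTTTGAAaaatttctagtt
ESPL1: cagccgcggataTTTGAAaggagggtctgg
The element began 29 bases before the start in PLK1 (chr16:23678848-23678877, + strand), 23 bases before it in CDCA8 (chr1:37692481-37692510, +), 26 in GTSE1 (chr22:46296832-46296861, +), 28 in HMMR (chr5:163460592-163460621, +), 35 in KIF15 (chr3:44761747-44761776, +), 27 in DEPDC1 (chr1:68497092-68497121, - strand), 29 in MKI67 (chr10:128126435-128126464, -), 20 in PIF1 (chr15:64825650-64825679, -) and 31 in ESPL1 (chr12:53268256-53268285, +). HMMR and MKI67 each held the letters a further time within 50 bases. A match is a description of these letters and not a bound site.

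The 2 other elements searched separated the lists differently. CCAAT, the letters bound by NF-Y, stood in the same 250 bases of 59.3% of the mitotic list genes, 49.4% of the G1/S list genes and 37.6% of the genes compared. TTTNGCGC, an E2F core, stood in 19.5% of the G1/S list genes, 2.96% of the mitotic list genes and 2.87% of the genes compared. Among mitotic list genes with at least 5 CPM in either set, the 49 with TTTGAA had a median log2 fold of 0.79 (high over low) and the 83 without it 0.41. Of those compared, 13 of 45 with it and 17 of 76 without it were called higher. The split ran the same way for CCAAT (0.59 over 78 genes with it, 0.38 over 54 without) and for TTTNGCGC (0.83 over 4 genes, 0.54 over 128). AURKA is not in the promoter table.

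Across the transcriptome, 7473 genes had at least 20 CPM in either set once the 6 score genes were left out. A gene is called higher or lower below when its summed CPM differed at least 2-fold and its mean log2(CPM + 1), centred on title groups, differed by at least 1 in the same direction. By that rule 415 genes (5.55%) were higher and 210 genes (2.81%) were lower in the high-score cells. These shares are the background for the counts of list members that follow. Of the 415 higher genes, 346 had under 50 CPM over all scored cells, where values of single cells scatter most, and 37 were in the mitotic lists. With a minimum of 50 CPM the counts were 131 (3.06% of 4285) and 50 (1.17%), and with the authors' TPM 241 (4.45% of 5417) and 94 (1.74%). No gene had every high-score cell above every low-score cell in CPM, or the reverse (0 of 7473, 0% each way). In centred levels 1 gene did, the spindle checkpoint kinase TTK (0.0134% of the genes compared). The margin was narrow, with a lowest high-score value of 1.01 and a highest low-score value of 0.99.

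Among mitotic genes outside the score, more were higher than lower. Of 143 mitotic list genes compared, 37 were higher (25.9%, against 5.55% of all genes) and 2 were lower, LIN9 and ESPL1 (1.40%, against 2.81%). Over the 156 with at least 5 CPM, the median log2 fold was 0.56, against 0.02 over all 11105 genes with at least 5 CPM, and 122 of the 156 were above 0. In 93 of them (59.6%) the level of the middle cells lay between those of both sets, against 36.8% of all genes. Counted per cell, the summed level of the 159 genes was 15639 to 36741 CPM (median 21154) in the high set and 10662 to 18607 CPM (median 14551) in the low set, so that the 2 ranges overlapped. The lists were chosen with earlier results of these data known, so their direction is a description.

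**Figure D2:**
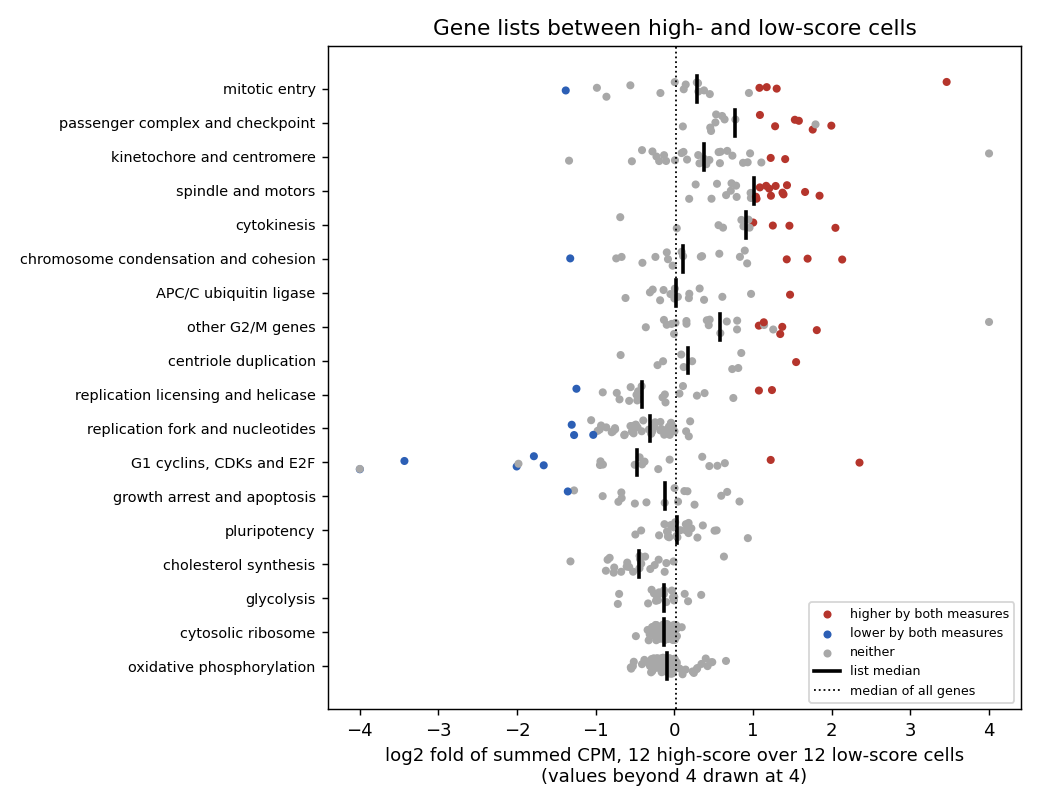
Log2 fold of summed CPM between the 12 high-score and the 12 low-score cells (x axis, values beyond 4 drawn at 4) for every gene with at least 5 CPM in either set, by list (y axis). Red points were higher and blue points lower by both measures, black bars are list medians and the dotted line is the median of all genes (0.02). Spindle and motor genes lie furthest to the right (median 1.02), G1/S genes to the left, and ribosomal, glycolytic and respiratory genes close to 0, mostly just below it.

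Spindle and motor proteins had the highest list median, 1.02 on the log2 scale. Of 24 compared, 12 were higher, none lower, and all 24 lay above 0. TPX2, which activates Aurora A on spindle microtubules, had 332 CPM in the high set, 181 CPM in the middle cells and 127 CPM in the low set, a 2.62-fold difference (95% interval 2.55 to 2.69, counting error only). The high-score cell had the greater centred TPX2 value in 91.7% of those pairs. The microtubule polymerase CKAP5 had 284, 167 and 105 CPM, and the spindle protein NUSAP1 280, 167 and 132 CPM. The kinesin KIF14, which acts at the midbody, had the largest fold of the list, 3.59 (3.37 to 3.83), from 20.5 to 73.7 CPM. KIF2C, a kinesin that takes microtubule ends apart at centromeres, was 2.44-fold higher (141.9 against 58.2 CPM). KIF20A, a kinesin of the central spindle, was 2.30-fold higher, with 131 CPM in the middle cells, just above the 129 CPM of the high set.

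The chromosomal passenger complex and the spindle checkpoint hold back anaphase until every chromosome is attached. Of 14 such genes compared, 6 were higher and none lower, and the list median was 0.77. TTK, the kinase that starts checkpoint signalling at kinetochores, ran from 152 to 404 CPM (median 201) in the high set, from 6.45 to 293 CPM (median 105) in the middle cells and from 0.33 to 209 CPM (median 62.2) in the low set. A single low-score cell, live Triton replicate 5, exceeded the lowest high-score cell, and the summed level was 3.99-fold higher in the high set (3.84 to 4.14). The passenger kinase AURKB had 214 CPM against 87.9 CPM, and the borealin gene CDCA8 141 against 48.6 CPM. SGOL2, a shugoshin that guards centromeric cohesion, was 2.99-fold higher, GSG2, the histone kinase haspin, 3.38-fold, and NEK2, a centrosome kinase, 2.12-fold. Within a title group GSG2 went the other way in live Triton cells (log2 fold -3.72) and NEK2 was level in fixed FRISCR cells (-0.01). The checkpoint genes BUB1B (log2 fold 0.47), MAD2L1 (0.46), BUB1 (0.53) and BUB3 (0.77) lay above 0 but did not reach 2-fold.

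Fewer kinetochore and centromere genes were called. Of 25 compared, 2 were higher (8.00%, against 5.55% of all genes). These were SKA1 (50.3 against 21.5 CPM), which couples kinetochores to microtubule ends, and CASC5 (54.2 against 20.4 CPM), the scaffold for BUB proteins. None was lower, and the list median was 0.38. ZWINT (194 against 222 CPM) and MLF1IP (193 against 226 CPM), a centromere protein, were slightly lower in the high set. CENPA, the centromeric histone, was under the level for comparison: 362 counts came from the high-score cells and 1 from the low-score cells.

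Genes of cytokinesis had a list median of 0.91, and 4 of 11 were higher and none lower. DEPDC1 had 25.2 CPM in the low set and 23.9 CPM in the middle cells, and its level in the high set was 4.13-fold that of the low set (3.90 to 4.38). It was listed at 0 in 4 of 12 low-score cells and in none of the high-score cells, and its log2 fold of 2.05 became 2.94 without live Triton replicate 5. RACGAP1, a part of centralspindlin, had 101 against 36.8 CPM, and ARHGAP11A, which curbs RhoA, 109 against 45.9 CPM. ANLN, the furrow scaffold anillin, had its highest summed level in the middle cells, 155 CPM, with 99.7 CPM in the high set and 55.3 CPM in the low set.

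Among genes of chromosome condensation and cohesion 3 of 19 were higher (15.8%, against 5.55% of all genes) and 1 lower (5.26%, against 2.81%). The list median was 0.11. TOP2A, the topoisomerase that untangles chromosomes before they part, was the most abundant called gene of the list. It ran from 206 to 2690 CPM (median 952) in the high set, from 50.3 to 657 CPM (median 412) in the middle cells and from 35.2 to 912 CPM (median 156) in the low set. The low-score cells at 912 and 651 CPM, live FRISCR replicate 5 and live Triton replicate 5, and the high-score cell at 206 CPM, live FRISCR replicate 13, crossed between the sets. The summed level was 4.39-fold higher in the high set (4.31 to 4.47). MKI67, which coats mitotic chromosomes and is a common marker of cycling cells, was 2.69-fold higher (140 against 52.1 CPM), and CDCA2, which brings a phosphatase to chromosomes, 3.23-fold (log2 fold 1.69, or 2.47 without live Triton replicate 5). The cohesin subunits SMC3 (log2 fold 0.11) and RAD21 (0.34) and the condensin subunit SMC4 (0.35) lay above the median of all genes (0.02) but did not reach 2-fold. RAD21 differed in direction by title group, with 0.86 in live FRISCR and -0.46 in both fixed FRISCR and live Triton cells. ESPL1, the protease separase that cuts cohesin, was 2.51-fold lower in the high set (13.0 against 32.6 CPM), with a count in 4 of 12 high-score and 10 of 12 low-score cells. Its log2 fold was -1.33, became -2.02 without live FRISCR replicate 7, and was 0.02 between the 19 highest and the 19 lowest cells.

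In the list of mitotic entry, 4 of 17 genes were higher (23.5%, against 5.55% of all genes) and 1 lower (5.88%, against 2.81%). The list median was 0.29. CDK1, the kinase that drives entry, had 285 CPM in the high set, 108 CPM in the middle cells and 116 CPM in the low set, a 2.46-fold difference (2.39 to 2.53). GTSE1 (46.3 against 20.5 CPM) and the phosphatase CDC25C (40.7 against 19.2 CPM), which activates CDK1, were higher, though within library set 1 CDC25C had a log2 fold of -0.26. C13orf34, the Aurora A activator bora, had 42.0 CPM in the high set and 3.81 CPM in the low set, with a count in 9 and 5 of 12 cells, and its log2 fold of 3.46 became 6.94 without fixed FRISCR replicate 12. Cyclin A2 (CCNA2), which acts from S phase on, differed by 1.11-fold (204 against 185 CPM), and cyclin B2 (CCNB2) by 1.37-fold (183 against 134 CPM). CKS2, a small CDK subunit, was 1.93-fold higher and had the greater centred value in the high-score cell in 95.1% of pairs. LIN9, a MuvB subunit, was 2.61-fold lower (18.4 against 47.9 CPM), though within live FRISCR cells it was higher by 0.30 on the log2 scale.

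Of the anaphase-promoting complex, 1 of 13 genes was higher (7.69%, against 5.55% of all genes). This was UBE2C, the enzyme that starts its ubiquitin chains, with 427 CPM in the high set, 273 CPM in the middle cells and 154 CPM in the low set (2.77-fold, 2.70 to 2.84). The list median was 0.02, close to that of all genes, and the subunits ANAPC11 (log2 fold 0.04) and ANAPC5 (0.18) were close to it. Among other genes that peak in G2 or mitosis, 5 of 20 were higher, none lower, and the median was 0.58. KPNA2, an importin, ran from 722 to 4334 CPM (median 1807) in the high set and from 389 to 2708 CPM (median 781) in the low set. CDCA3, an adaptor for degradation of the CDK1 inhibitor WEE1, was 3.51-fold higher (103.7 against 29.6 CPM) and greater in the high-score cell in 98.6% of pairs. In the centriole list, outside the mitotic lists, 1 of 10 was higher (10.0%, against 5.55% of all genes). This was NEDD1 (46.0 against 15.8 CPM), which anchors gamma-tubulin. PLK4, the kinase that starts centriole duplication, had 54.2 against 63.0 CPM.

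**Figure D3:**
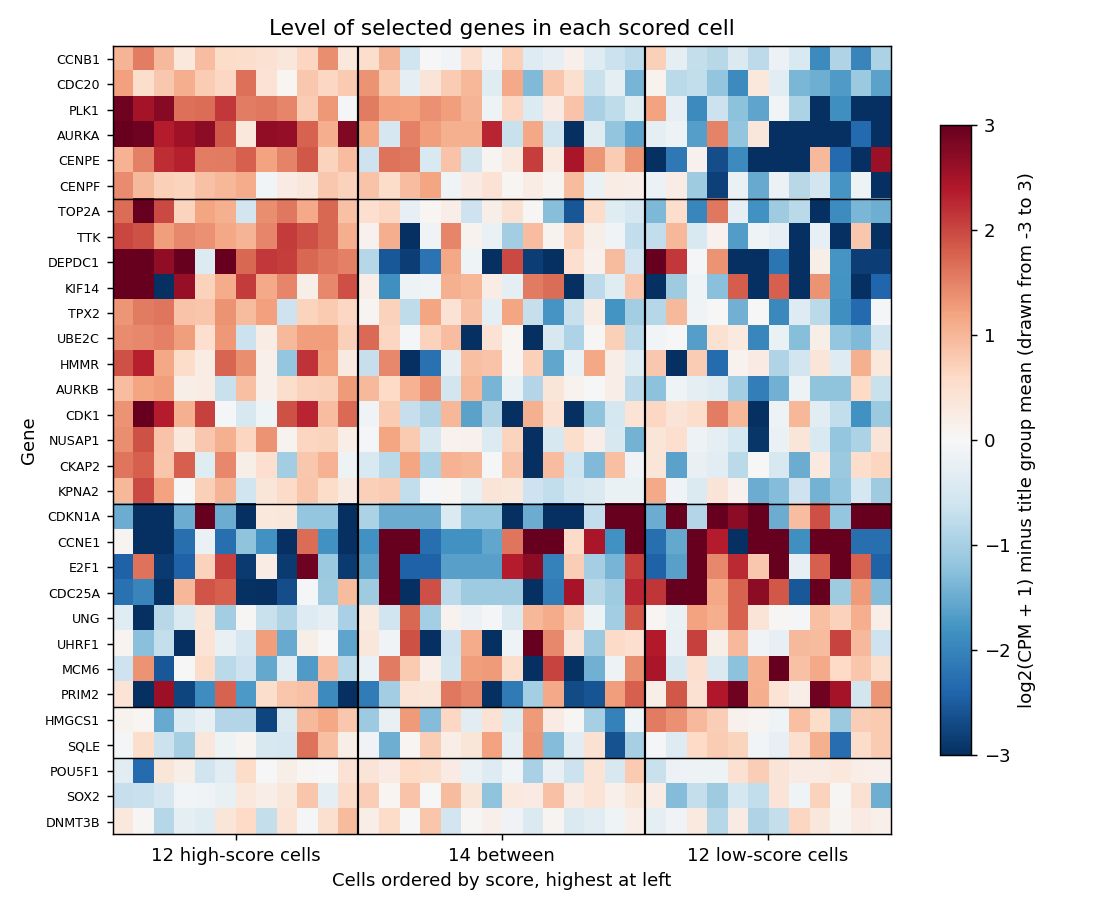
Level of 31 genes (rows) in the 38 scored cells (columns, highest score at left) as log2(CPM + 1) minus the mean of the title group, drawn from -3 (blue) to 3 (red); the genes were picked with their values known. From the top the blocks are the 6 score genes, 12 mitotic genes, 8 genes of G1 and S phase, 2 of cholesterol synthesis and 3 of pluripotency. TTK lies at least 1.01 above its title group mean in every high-score cell, and up to 0.99 above it in a low-score cell. CDKN1A is high in most low-score cells and absent from most others.

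Genes of G1 and S phase lay the other way. In the 3 lists together 9 of 86 genes compared were lower in the high-score cells (10.5%, against 2.81% of all genes) and 4 were higher (4.65%, against 5.55%). The median log2 fold over the 89 with at least 5 CPM was -0.41, and 16 of the 89 were above 0. Summed per cell, the lists gave 6970 to 10139 CPM (median 7880) in the high set and 8622 to 12582 CPM (median 10597) in the low set, and the 2 ranges overlapped.

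In replication licensing, the step that loads the MCM helicase on origins, the median was -0.42. Of 21 genes compared, 1 was lower (4.76%, against 2.81% of all genes) and 2 were higher (9.52%, against 5.55%). MCM6 had 93.2 CPM in the high set, 149 CPM in the middle cells and 221 CPM in the low set, a 2.37-fold difference (2.30 to 2.45). Most of it came from library set 2 (50.2 against 262 CPM), since library set 1 had 124 against 158 CPM. By title group the difference was widest in fixed FRISCR cells (51.6 against 374 CPM). Live FRISCR cells had 110.5 against 160.8 CPM and live Triton cells 119 against 134 CPM. MCM4 (347 against 563 CPM), MCM5 (233 against 325 CPM) and the loader CDC6 (150 against 221 CPM) were lower by less than 2-fold, while MCM3 (log2 fold -0.12) and MCM7 (0.06) were near the median of all genes. The genes called higher were DBF4 (124 against 52.7 CPM), which activates the kinase CDC7 at origins, and GINS3 (43.6 against 20.7 CPM), whose log2 fold of 1.07 became 1.85 without fixed FRISCR replicate 12 and was -1.61 within fixed FRISCR cells. GMNN, the licensing inhibitor geminin, was 1.38-fold lower.

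At the fork, 3 of 46 genes were lower (6.52%, against 2.81% of all genes) and none higher, and the median was -0.31. UNG, which removes uracil from DNA, ran from 4.29 to 244 CPM (median 127) in the high set, from 91.7 to 689 CPM (median 225) in the middle cells and from 183 to 648 CPM (median 301) in the low set. The high-score cell had the greater centred value in 5.56% of pairs. UNG was lower in the high set within each title group, by 1.53 on the log2 scale in live FRISCR, 1.01 in fixed FRISCR and 0.99 in live Triton cells. UHRF1, which guides maintenance methylation behind the fork, had 49.1 against 121 CPM, and the primase subunit PRIM2 35.3 against 72.2 CPM, though within fixed FRISCR cells PRIM2 had a log2 fold of 0.19. RRM2 (265 against 460 CPM), DUT (120 against 206 CPM) and PCNA (221 against 343 CPM) were lower by 1.55-fold to 1.74-fold. RRM1 had 299.5 CPM in both sets.

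Regulators of G1 had wide folds at low levels. Of 19 compared, 5 were lower, CDKN1A, CCNE1, E2F1, CDC25A and E2F5, and 2 were higher, RBL1 and E2F6. CDKN1A, the CDK inhibitor p21, was singled out after its values were seen. It was listed at 0 in 9 of the 12 high-score cells, and the other 3 had 2.53, 10.1 and 88.9 CPM. In the low set 8 of 12 cells had at least 10 CPM, from 15.9 to 365 CPM, against 2 of 12 high-score and 2 of 14 middle cells. The summed levels were 8.69 CPM in the high set, 9.76 CPM in the middle cells and 93.8 CPM in the low set, a 10.8-fold difference (9.84 to 11.9). Without live FRISCR replicate 8, the high-score cell at 88.9 CPM, the log2 fold went from -3.43 to -6.39. CDKN1A was lower in the high set within live FRISCR (16.6 against 103.7 CPM), fixed FRISCR (0.79 against 126 CPM) and live Triton cells (0 against 40.0 CPM).

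**Figure D4:**
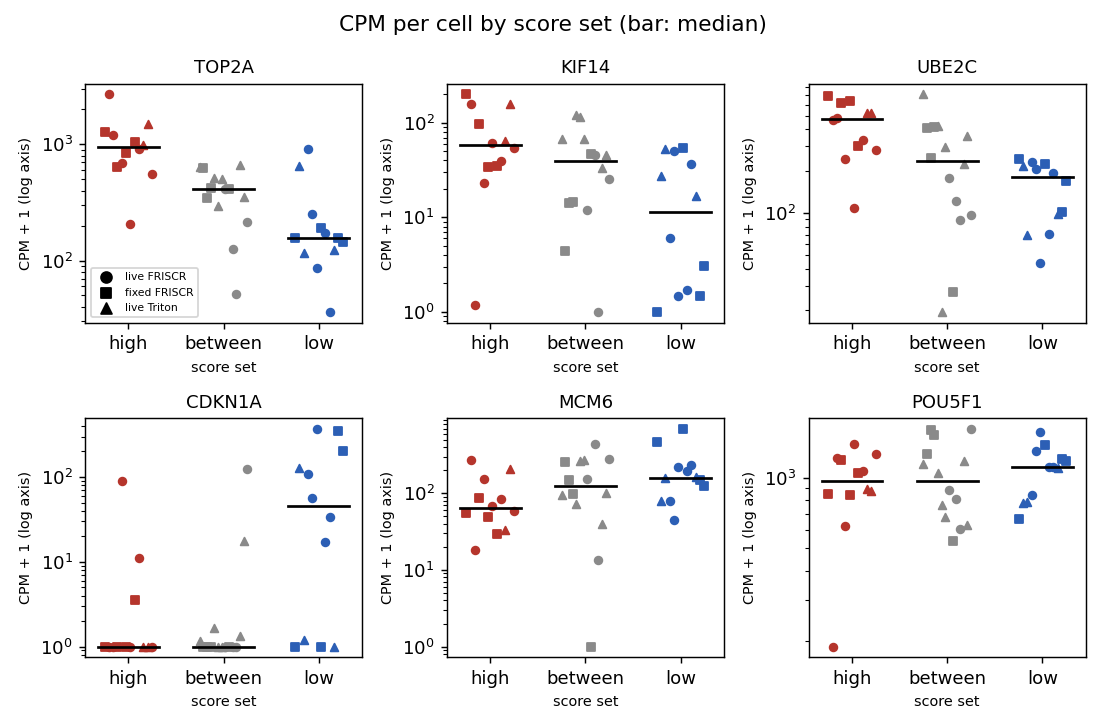
CPM + 1 per cell (log y axis) of 6 genes in the high, middle and low score sets (x axis), with a bar at the median and marker shapes for the title groups. TOP2A, KIF14 and UBE2C are higher in the high set with overlap, CDKN1A is at 0 in 9 of 12 high-score cells and at 10 CPM or more in 8 of 12 low-score cells, and POU5F1 overlaps throughout.

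Cyclin E1 (CCNE1), which drives entry into S phase, had 1.97 CPM in the high set, 29.9 CPM in the middle cells and 35.9 CPM in the low set. At least 10 CPM was found in 1 of 12, 8 of 14 and 6 of 12 cells, so the low set did not stand above the middle cells. Its log2 fold of -4.19 became -4.95 without live Triton replicate 8. Cyclin E2 (CCNE2), under the level for comparison, had no count in the high-score cells and 1018 counts in the low-score cells, from 6 of the 12 cells. E2F1 had 7.13 against 28.7 CPM, and its difference was in library set 2 (4.77 against 40.5 CPM), with 8.82 against 10.0 CPM in library set 1. CDC25A, the phosphatase that opens S phase, had 7.79 against 26.9 CPM. RBL1, the pocket protein p107, was 5.11-fold higher in the high set (27.6 against 5.39 CPM), and its log2 fold of 2.35 became 2.94 without live Triton replicate 5. Within a single title group E2F5 (live Triton, log2 fold 0.11) and E2F6 (live FRISCR, -0.58) went the other way. Cyclin D2 (CCND2) had 224 against 175 CPM and CDK4 302 against 349 CPM.

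Replication-dependent histone mRNAs have no poly(A) tail, and Smart-Seq2 primes on poly(A). Of 49 such genes 1 was compared, HIST1H4C, with 23.3 CPM in the high set, 210 CPM in the middle cells and 154 CPM in the low set. Its fold rested on few cells, with a log2 fold of -2.72 over all cells of both sets, -4.70 without live Triton replicate 3 and -1.99 without live Triton replicate 5. Most HIST1H4C counts came from live Triton cells (124 against 562 CPM). Levels were 2.2 against 9.0 CPM in live FRISCR and 1.4 against 6.6 CPM in fixed FRISCR cells, all under the 20 CPM for comparison. The sets also differed in their number of Triton cells, 2 and 3. Near-identical histone genes share reads, so the split between them is uncertain.

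Mitotic and G1/S levels together placed most cells of the 2 sets apart. The mean centred level of the mitotic lists was above its title group mean in 12 of 12 high-score cells, 4 of 14 middle cells and 2 of 12 low-score cells. That of the G1/S lists was above it in 4, 6 and 10 of those cells. In 8 of 12 high-score cells the mitotic level was above and the G1/S level below the title group mean, which held for no low-score cell. The opposite held for 8 of 12 low-score cells and for no high-score cell. Across all 38 cells the mitotic list level and the score had Pearson's r of 0.71 and Spearman's rho of 0.77, and across the 14 middle cells 0.46 and 0.50. For the G1/S level the values were -0.48 and -0.49 across 38 cells and -0.06 and -0.12 across the middle cells. These correlations are over cells that share library sets and title groups and are given as descriptions.

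**Figure D5:**
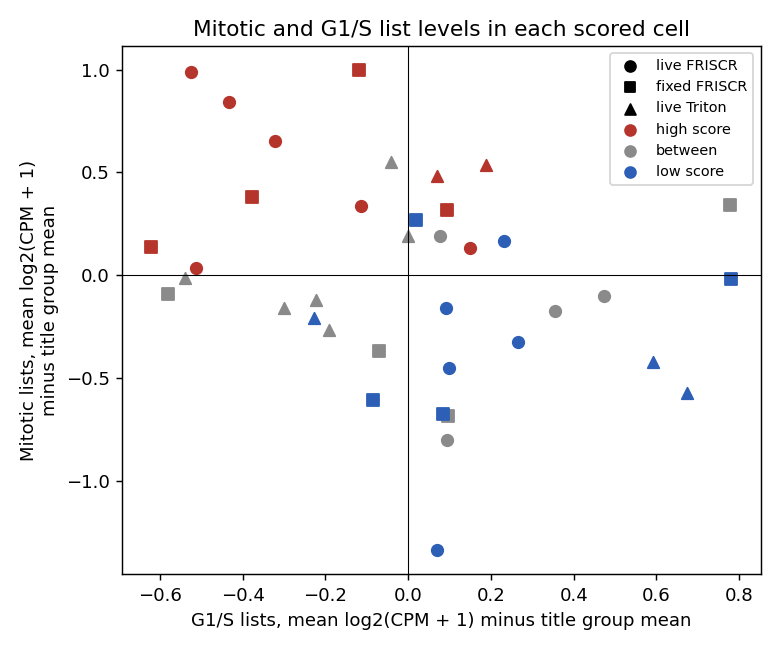
Mean centred log2(CPM + 1) of the mitotic lists (y axis) against that of the G1/S lists (x axis) in each of the 38 scored cells, coloured by score set and shaped by title group. All 12 high-score cells lie above 0 on the y axis and 10 of 12 low-score cells lie below 0. The middle cells spread over all parts of the plot.

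The list medians had the same sign in each title group. The median log2 fold of the mitotic lists was 0.63 in live FRISCR cells (6 against 5), 0.40 in fixed FRISCR cells (4 against 4) and 0.63 in live Triton cells (2 against 3). For spindle and motors it was 1.24, 0.75 and 0.90, and for the passenger complex and checkpoint 1.03, 0.70 and 1.05. For the G1/S lists it was -0.39, -0.56 and -0.49. Single live Triton cells did not follow that median: in both high-score cells the mean centred G1/S level was above the group mean (0.07 and 0.19), and in 1 of the 3 low-score cells it was below (-0.23). Over the 11 live Triton cells this level and the score had Spearman's rho of -0.03, and Pearson's r went from -0.53 to 0.61 without the 2 cells of most extreme score. By library set the mitotic lists gave 0.44 and 0.57. The G1/S lists gave -0.20 in library set 1 and -0.53 in library set 2, and licensing genes 0.05 and -0.70. Whether the 2 library sets differ in this was not tested.

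Of 23 pluripotency genes compared none was called either way, where 5.55% of all genes were higher and 2.81% lower. The median log2 fold was 0.03. Per cell, the mean centred level of the list was above its title group mean in 10 of 12 high-score, 5 of 14 middle and 5 of 12 low-score cells. It ran from -0.65 to 0.54 (median 0.18) in the high set and from -0.61 to 0.32 (median -0.03) in the low set, so the sets overlapped. POU5F1 ran from 189 to 1383 CPM (median 970) in the high set and from 662 to 1566 CPM (median 1108) in the low set. LIN28A, which blocks let-7 maturation, had summed levels of 1079 and 1071 CPM, and the NODAL coreceptor TDGF1 1142 and 1122 CPM. TERF1, a telomere protein highly expressed in stem cells, was lowest relative to the low set (600 against 847 CPM), and PRDM14, a repressor of differentiation, was highest (49.3 against 25.8 CPM).

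In a list of growth arrest and apoptosis genes, 1 of 15 compared was lower, the stress protein SESN1 (39.6 against 101 CPM), and none was higher. Within fixed FRISCR cells SESN1 had 88.0 against 93.2 CPM. PMAIP1, the BH3-only protein NOXA, had 146 against 274 CPM and MDM2, a ubiquitin ligase, 106.4 against 169 CPM. ZMAT3, an RNA-binding protein, had 20.1 against 11.3 CPM, so the genes differed in direction, and the list median was -0.12. Of 21 chaperone genes compared, 1 was higher (4.76%, against 5.55% of all genes), the inducible HSP70 gene HSPA1A (64.1 against 26.3 CPM), whose reads may be shared with a near-identical copy. The HSPA1A difference was in library set 2 (82.5 against 12.5 CPM), with 50.9 against 47.9 CPM in library set 1. Of 21 genes of the unfolded protein and amino acid response, 1 was lower (4.76%, against 2.81% of all genes). This was HERPUD1 (49.8 against 118 CPM), which acts in degradation of proteins from the endoplasmic reticulum. The medians of both lists were 0.06 and -0.20.

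Genes of cholesterol synthesis were lower in the high set by small amounts. None of 22 was called, but 22 of the 23 genes were lower by both measures (95.7%, against 40.0% of all genes), with a median log2 fold of -0.44. HMGCS1, an early enzyme of the pathway, had 212 CPM in the high set, 217 CPM in the middle cells and 362 CPM in the low set. The enzyme IDI1 had 245, 246 and 417 CPM. The list summed to 5848 CPM in the high set, 5305 CPM in the middle cells and 8062 CPM in the low set, so the middle cells were no higher than the high-score cells. Within live FRISCR and fixed FRISCR cells the median was -0.67 and -0.89, while in the 2 and 3 live Triton cells it was 0.22. Housekeeping lists had smaller folds, mostly in the same direction, with no gene called. The share of genes lower by both measures was 87.2% of 78 ribosomal protein genes (median log2 fold -0.13), 78.9% of 19 glycolysis genes (-0.13), 76.9% of 78 respiratory subunits (-0.09) and 61.3% of 31 proteasome subunits (-0.05).

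Outside the lists, the leading higher genes were low in level. THADA, a gene disrupted in thyroid tumours, had 58.7 CPM in the high set and 5.25 CPM in the low set, with a count in 10 and 5 of 12 cells, and was higher in the high set within both library sets (64.3 against 9.16 CPM and 51.0 against 2.76 CPM). Its log2 fold of 3.48 became 4.15 without live Triton replicate 5. CYP26A1, which breaks down retinoic acid, had 147 against 10.9 CPM. Its log2 fold of 3.76 fell to 1.80 without live FRISCR replicate 1 and became 6.26 without fixed FRISCR replicate 12, and within library set 2 the levels were 17.3 and 15.0 CPM. The receptor NOTCH2 had 64.6 CPM in the high set, 65.1 CPM in the middle cells and 16.4 CPM in the low set, with a log2 fold of 1.98, or 2.57 without live Triton replicate 9. The kinase VRK3 (65.1 against 16.5 CPM), the Mediator subunit MED14 (70.4 against 20.0 CPM) and the inhibitor of DNA binding ID2 (126 against 39.2 CPM) were also among the 15 named, and ID2 had a log2 fold of -0.02 within live Triton cells.

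Leading lower genes outside the lists were of similar level. FHL1, a LIM domain protein, had 24.7 CPM in the high set, 48.0 CPM in the middle cells and 95.4 CPM in the low set, and the high-score cell had the greater centred value in 5.56% of pairs. ACSS2, which makes acetyl-CoA from acetate, had 16.2 against 64.4 CPM, and MUT, the mitochondrial methylmalonyl-CoA mutase, 14.6 against 55.6 CPM. The tyrosine kinase ABL1 had 15.6 against 58.5 CPM. H1F0, a linker histone whose mRNA is polyadenylated, had 67.2 against 197 CPM, but within live FRISCR cells it was higher in the high set, by 0.78 on the log2 scale, and its log2 fold of -1.55 became -2.58 without live FRISCR replicate 1. PRPF39, a splicing factor, had 34.4 against 82.7 CPM and was counted in 12 of 12 cells of both sets.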

How the data were processed

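Per the labels' protocols, cDNA of single H1 cells was made with Smart-Seq2 and sequenced as Nextera XT libraries. The authors deposited estimated counts (40.3% of nonzero values not whole) and TPM values for 23045 genes, with a column per cell and build GRCh37 (hg19) per the submitters' processing notes. Aligner, quantifier and annotation were not given in the sources used here. Gene totals ran from 3616108 to 6594018 counts in the 38 scored cells.

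From the deposited counts, CPM, the score and both sets were computed in Python 3.11.15. Each gene's counts were added up over the 12 cells of a set, and sums under 3 counts over the set were put at 3 in a ratio. Ratios carry exact 95% binomial intervals for counting error alone. The libraries carry no molecular identifiers, so reads are not independent molecules. No test was run, because the cells were chosen by a measured score and are not replicates. List medians used genes with at least 5 CPM and calls genes with at least 20 CPM in either set. The members, lists and settings were chosen with earlier results of these data known. Genes named were the score genes, of each list the 3 most abundant and the most extreme each way, any mitotic list gene, and outside the lists the 15 leading genes each way with at least 50 CPM and a count in 9 or more cells of the higher set; others named, such as CDKN1A and the remaining genes of the G1/S, growth arrest and apoptosis, and cholesterol lists, were picked after their values were seen. Thinning took 1000000 counts per cell. Counts without stated strand cannot separate overlapping genes. The contrast was also run on simulated counts with known folds, the same dispersion for every gene and sets drawn at random. That checked the calculation only, and not the calls between sets chosen by a score. Alternatives used TMM factors (edgeR 4.0.16) and median-of-ratios factors (DESeq2 1.42.0) in R 4.3.3, the authors' TPM, other filters, cell numbers and scores, each title group and library set alone, and each cell left out.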

Additional observations from a re-analysis of the deposited data

How the results depend on the processing

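The 2 list medians kept their direction in all 20 alternatives that bear on them and in the 24 that left out 1 cell each, which gave 0.49 to 0.59 for the mitotic lists and -0.47 to -0.29 for the G1/S lists. Leaving CDC20, PLK1 or CENPF out of the score chose the same cells for both sets, so those alternatives could not differ. The numbers of genes called depended on the settings. The number compared changed as well: 7473 as reported, 11105 at 5 CPM or more, 4285 at 50 CPM and 2261 at 100 CPM. Shares higher (lower) were 5.55% (2.81%), 6.95% (4.14%), 3.06% (1.17%) and 1.86% (0.487%) in that order. Genes higher (lower) in high-score cells numbered 415 (210) as reported, 241 (94) with the authors' TPM, 772 (460) at 5 CPM or more, 131 (50) at 50 CPM or more, 42 (11) at 100 CPM or more, a minimum added after seeing the data, 172 (53) with a pseudocount of 10, 743 (449) with 8 cells in each set and 190 (91) with 19. With fewer cells in each set the numbers were larger: 829 (601) in library set 1, 810 (535) in library set 2, 992 (563) in live FRISCR, 1077 (985) in fixed FRISCR and 1146 (893) in live Triton cells, and 597 (338) in FRISCR cells alone, a choice added after seeing the data. Leaving out 1 cell at a time gave 410 to 477 higher and 205 to 243 lower genes, but not all were the same genes. Without live FRISCR replicate 1, 324 of the 415 higher and 153 of the 210 lower genes were called again. With AURKA left out of the score, 274 and 133 were. Of 88 called genes followed under each alternative, 13 log2 folds changed sign: ESPL1 with 19 cells in each set (0.0151), H1F0 (0.78), LIN9 (0.30) and E2F6 (-0.58) in live FRISCR cells, ID2 (-0.0206), PIPOX (-0.46), E2F5 (0.11) and GSG2 (-3.72) in live Triton cells, CDC25C in library set 1 (-0.26) and fixed FRISCR cells (-0.27), and GINS3 (-1.61), NEK2 (-0.0064) and PRIM2 (0.19) in fixed FRISCR cells. The cause was not tested. From TPM, where 11 of the 12 cells of each set were chosen again, 156 of the 415 higher genes were also called. No paired analysis was possible because no test was run, and the replicate numbers of cells name no shared source. Genes under 50 CPM hold 346 of the 415 higher genes, and single-cell counts limit what can be read from them.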
